A study of Mus musculus with 12 samples.

Results

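Interferon-stimulated genes were followed in myelin RNA of the mouse brain over life, through 9 genes chosen by symbol from a table of 21937 genes: Ifit1, Ifit3, Ifi27l2a, Isg15, Usp18, Oasl2, Irf7, Bst2 and Ifitm3. All 9 were present in the table, and all 9 passed the filter on low values. Their levels rose late: between 6 and 24 months all 9 increased, by 1.40-fold to 2.61-fold in the means, and in each of them the 3 libraries of 24 months lay above the 3 of 6 months. Of all 14634 genes tested, 16.6% rose between these ages and 23.2% had their libraries separated in this way. Without replicate 2 of 6 months 5 of the 9 passed the test. For Ifit3, Isg15, Usp18 and Oasl2 the lowest library of 24 months was only just above the highest of 6 months. Between P18, P75 and 6 months the same genes had no common direction. At 24 months Isg15 did not pass the test against P18 or P75, and Irf7 did not pass it against P18.

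The study purified a light membrane fraction enriched for myelin from brains of male c57Bl6/N mice by sucrose density gradients, and sequenced its RNA to ask how the transcriptome of myelin matures. The mice were wild type by their labels, with no treatment given, and the groups differed by age: P18 (18 days old), P75 (75 days old), 6 months and 24 months. Each age had 3 libraries. Single brains are stated as the source of the libraries of 6 months, while for the other ages the sources used here do not say how the libraries relate to mice, so that p-values measure the spread between these libraries.

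Interferons are secreted proteins that warn cells of a virus. They bind receptors at the cell surface, kinases at the receptor then pass the signal on, and a complex that holds IRF9 binds interferon-stimulated response elements in DNA and switches on a large set of genes. In the brain, microglia, astrocytes, endothelial cells, oligodendrocytes and neurons can all respond. The 9 genes stand for several branches of this response. IFIT1 and IFIT3 bind foreign RNA or assist in it, and OASL2 belongs to the family of oligoadenylate synthetases. ISG15 is a ubiquitin-like protein that is joined to other proteins, and USP18 removes it and also dampens the receptor. IRF7 is a transcription factor that amplifies interferon production. BST2 (tetherin) holds budding virus at the membrane, IFITM3 hinders virus entry from endosomes, and Ifi27l2a encodes a small membrane protein.

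Promoter sequences from RefSeq (build GRCm38.p6, 250 bases before to 50 bases after the start) were given for 7 of the 9 genes, all but Usp18 and Ifi27l2a. Each of the 7 windows had 1 exact match in NCBIM37 (mm9) in the region around its gene, on the strand of the gene. The rest of the build was not searched. The core of the interferon-stimulated response element was searched on both strands as GAAANNGAAA, which reads TTTCNNTTTC on the other strand. It was found in 5 of the 7 windows, those of Ifit1, Ifit3, Isg15, Bst2 and Ifitm3, and in 3.44% of all 32851 windows. Neither the Oasl2 nor the Irf7 window held these letters. The stretch from 170 to 51 bases before the start is shown 5′ to 3′ on the strand of the gene for the 4 genes whose matches lie there, to let the repeated element be seen, with the matches in capitals.
Ifit1 (NCBIM37 chr19:34715209-34715328, + strand): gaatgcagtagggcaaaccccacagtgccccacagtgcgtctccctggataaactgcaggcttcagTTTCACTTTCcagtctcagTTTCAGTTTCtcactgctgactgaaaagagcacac
Ifit3 (NCBIM37 chr19:34657849-34657968, + strand): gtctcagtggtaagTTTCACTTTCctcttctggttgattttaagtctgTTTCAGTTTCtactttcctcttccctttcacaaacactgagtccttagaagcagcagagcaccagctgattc
Isg15 (NCBIM37 chr4:155574978-155575097, - strand): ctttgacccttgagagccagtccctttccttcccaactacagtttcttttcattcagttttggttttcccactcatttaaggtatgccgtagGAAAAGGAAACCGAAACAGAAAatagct
Bst2 (NCBIM37 chr8:74061422-74061541, - strand): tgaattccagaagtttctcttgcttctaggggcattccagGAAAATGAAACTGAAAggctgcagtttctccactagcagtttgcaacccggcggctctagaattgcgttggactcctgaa

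Ifit1 and Ifit3 each held 2 separate copies, and the letters of the copies were the same in both genes, TTTCACTTTC and TTTCAGTTTC. In Ifit1 they began 104 and 85 bases before the start, and in Ifit3 156 and 122 bases before it. Isg15 held 3 copies that overlap each other, from 78 to 57 bases before the start, and Bst2 held 2 that overlap, from 130 to 115 bases before it. The 2 copies of Ifitm3 lay after the start, from base 3 to base 12 and from base 20 to base 29. The gamma-activated site, an element of the response to interferon gamma, was searched as TTCNNNGAA and was found in the windows of Bst2 and Ifitm3, and in 8.30% of all windows; in both genes it shares bases with a copy of the response element. These are matches of letters, and binding was not measured.

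The table gave read counts normalized for library size, called normalized reads here. A sequenced read was worth from 0.812 normalized reads (replicate 1 of 6 months) to 1.19 (replicate 1 of P18). The libraries held 20299052 to 27214385 reads on genes. The 9 genes were covered by 10 reads (Irf7, replicate 2 of 6 months) to 472 reads (Ifit3, replicate 1 of 6 months) in a library, so that counting error was largest for Irf7 and Usp18. Mbp, a defining mRNA of myelin, took 9.47% to 20.8% of the reads at P18 and 4.76% to 8.48% at the later ages, and all 8 oligodendrocyte markers were detected at every age. A gene was taken to have changed where its adjusted p in limma, on log2(normalized reads + 1), was under 0.1, the rate of the study. This was tested for 14634 genes with a mean of at least 10 normalized reads.

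**Figure D1:**
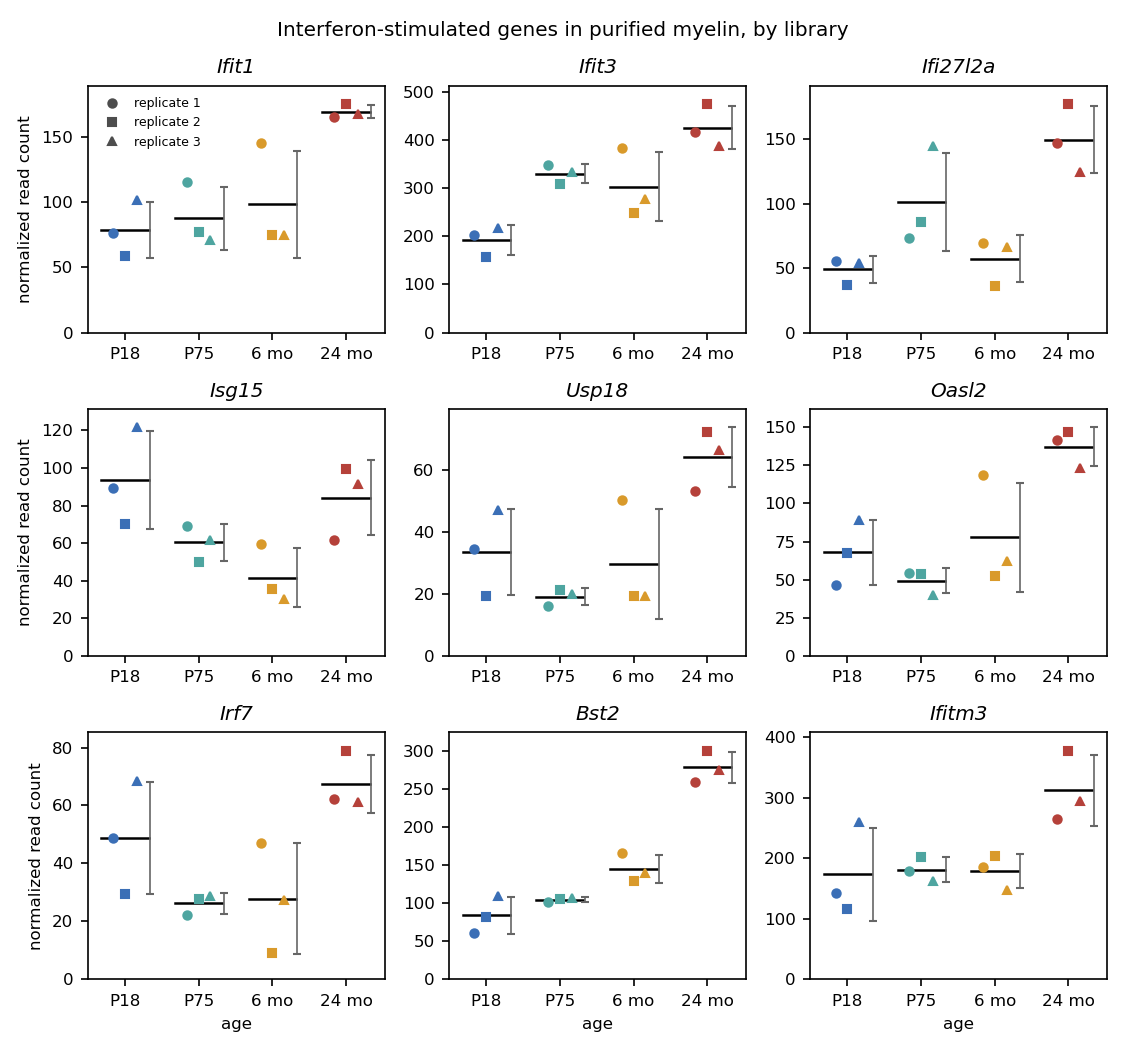
Normalized read counts (vertical axes, linear and starting at 0) of the 9 genes at P18, P75, 6 months and 24 months. Each symbol is 1 library, its shape gives the replicate number, the line is the mean of the 3 libraries and the bar is ± 1 SD. The 3 libraries of 24 months lay above all 3 of 6 months in every panel, and replicate 1 of 6 months was the highest of its age in 8 of the 9. Over all genes tested, these held for 23.2% and 36.7%.

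Between 6 and 24 months, 9 of 9 genes rose and 0 fell. Among all 14634 genes tested, 16.6% rose and 12.7% fell in the same comparison. With all libraries scaled to the same total, 9.53% of all genes rose and 11% fell, and 9 of the 9 still rose. The share of all genes that rose was 9.94% without replicate 1 of 6 months, 10.8% without replicate 2 of 6 months and 9.53% without replicate 2 of 24 months. The median log2 change of the 9 was 0.94, against 0.028 over all genes tested, and 4 of the 9 changed over 2-fold (Ifi27l2a, Isg15, Usp18 and Irf7). How many of all genes changed over 2-fold was not counted. In such bulk RNA, more or fewer cells of a type and more or less RNA per cell cannot be told apart. All 3 libraries of 24 months lay above all 3 of 6 months for 9 of 9 genes, which held for 23.2% of all genes. In Ifit3 (386 against 383 normalized reads), Isg15 (61.4 against 59.3), Usp18 (53.5 against 50.4) and Oasl2 (123 against 119) the margin was narrow. There the lowest library of 24 months is set against replicate 1 of 6 months. The separation was read on the deposited normalized reads only, not under another scaling. In 6 of the 9, all but Ifi27l2a, Isg15 and Irf7, the libraries of 24 months lay above all 9 younger libraries, which held for 9.37% of all genes. Without replicate 2 of 6 months 5 of the 9 passed, and Ifit1 (log2 change 0.69), Ifit3 (0.38), Usp18 (0.997) and Oasl2 (0.66) did not (adjusted p from 0.101 to 0.139). Without replicate 2 of 24 months 7 passed, and Ifit3 (0.43, adjusted p = 0.125) and Ifitm3 (0.65, adjusted p = 0.1075) did not. All of these changes stayed above 0.

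**Figure D2:**
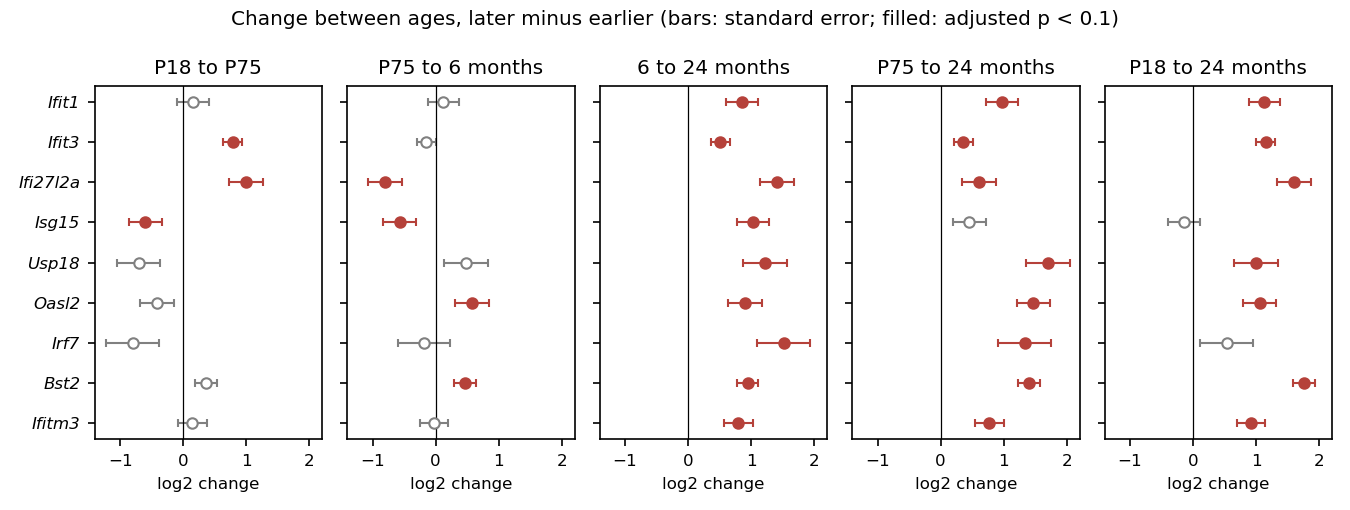
Log2 change from the earlier to the later age (horizontal axes) of the 9 genes in the 5 comparisons, with bars of ± 1 SE from limma; filled symbols have an adjusted p under 0.1. All 9 symbols are filled and to the right of 0 from 6 to 24 months, where 16.6% of all genes tested rose. From P18 to P75 and from P75 to 6 months the symbols lie on both sides.

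Ifit1 and Ifit3 stand close to each other on chromosome 19. Ifit1 (NCBIM37 chr19:34715361-34724499, + strand, 2 exons) had 76.05, 58.8 and 101 normalized reads in the 3 libraries of P18, 115, 77.0 and 70.8 at P75, 145, 74.6 and 74.9 at 6 months, and 165, 175 and 168 at 24 months. The 9 younger libraries overlapped, with replicate 1 of 6 months the highest of them, and the 3 of 24 months stood together above all. The mean went from 98.3 ± 40.8 at 6 months to 169 ± 5.11 at 24 months (SD, n = 3), a log2 change of 0.85 ± 0.25 (SE, adjusted p = 0.0268). Ifit1 also rose from P75 to 24 months, by 0.98 on the log2 scale (adjusted p = 0.00466), and from P18 to 24 months, by 1.13 (adjusted p = 0.000887), and the neighbouring younger ages did not differ beyond their spread.

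Ifit3 (NCBIM37 chr19:34658021-34663221, + strand, 2 exons) took its rise in steps. It had 202, 157 and 218 normalized reads at P18, 347, 309 and 334 at P75, 383, 248 and 277 at 6 months, and 415, 474 and 386 at 24 months. The P18 libraries lay below all others, those of P75 and 6 months overlapped, and those of 24 months were above all. From P18 to P75 it rose by 0.79 ± 0.15 on the log2 scale (SE, adjusted p = 0.000727), and from 6 to 24 months by 0.51 ± 0.15 (adjusted p = 0.0305), the smallest rise among the 9 genes in that comparison. The rise from P75 to 24 months, 0.36 (adjusted p = 0.0635), did not pass with all libraries scaled to the same total (adjusted p = 0.164), with quantile normalization (adjusted p = 0.125), or without replicate 2 or 3 of P75 or replicate 2 of 24 months. Of all 50-base stretches of the Ifit3 transcripts, 51.5% also occur in I830012O16Rik, a near copy listed on its own at 90.7 ± 3.68 normalized reads at P18 and 190 ± 32.7 at 24 months (SD, n = 3), so how the reads were split between the pair is uncertain. Ifit1 shared 7.13% of its stretches with other genes.

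Oasl2 (NCBIM37 chr5:115346943-115362243, + strand, 7 exons) had 46.3, 67.8 and 89.4 normalized reads at P18, 54.1, 53.8 and 39.8 at P75, 119, 52.4 and 62.3 at 6 months, and 142, 147 and 123 at 24 months. Replicate 1 of 6 months was close to the 24-month libraries, and the others of that age were at the level of P75. The means were 49.2 ± 8.17 at P75, 77.8 ± 35.7 at 6 months and 137 ± 12.6 at 24 months (SD, n = 3). Oasl2 rose by 0.57 ± 0.27 on the log2 scale from P75 to 6 months (SE, adjusted p = 0.0841), by 0.90 ± 0.27 from 6 to 24 months (adjusted p = 0.0292) and by 1.47 ± 0.27 from P75 to 24 months (adjusted p = 0.000375). The first of these rises rested on replicate 1 of 6 months: without it the change was 0.22 (adjusted p = 0.471). It was also lost with quantile normalization (adjusted p = 0.123), with no filter on low values (adjusted p = 0.121), without replicate 2 or 3 of P75, and with the replicate number as a block (adjusted p = 0.103). Deviations of libraries of P75 and 6 months with the same number correlated only weakly over all genes (r from 0.101 to 0.187).

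Isg15 and its protease Usp18 followed different courses before 6 months. Isg15 (NCBIM37 chr4:155573533-155574927, - strand, 2 exons) had 89.1, 70.05 and 122 normalized reads at P18, 69.2, 50.1 and 61.9 at P75, 59.3, 35.5 and 30.2 at 6 months, and 61.4, 99.5 and 91.6 at 24 months. Each age overlapped its neighbour in the order of the means, which ran from 41.7 ± 15.5 at 6 months over 60.4 ± 9.63 at P75 and 84.2 ± 20.1 at 24 months to 93.6 ± 26.0 at P18 (SD, n = 3). Isg15 fell by 0.60 on the log2 scale from P18 to P75 (SE 0.26, adjusted p = 0.0745) and by 0.57 from P75 to 6 months (SE 0.26, adjusted p = 0.0735), and then rose by 1.03 ± 0.26 from 6 to 24 months (adjusted p = 0.0131). At 24 months it did not pass the test against P75 (log2 change 0.46, adjusted p = 0.160) or against P18 (-0.14, adjusted p = 0.645), unlike most of the other genes.

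Both falls of Isg15 were close to the threshold. The fall from P18 to P75 did not pass with all libraries scaled to the same total (-0.48, adjusted p = 0.1775), a scaling that moved the median change of all genes to 0.14 on the log2 scale, nor with no filter on low values (adjusted p = 0.112), nor without replicate 1 or 3 of P18 or replicate 2 or 3 of P75 (adjusted p from 0.116 to 0.247). The fall from P75 to 6 months did not pass in edgeR (adjusted p = 0.126), in DESeq2 (adjusted p = 0.102) or with no filter on low values (adjusted p = 0.108), nor without replicate 1 or 3 of P75 or replicate 2 or 3 of 6 months (adjusted p from 0.147 to 0.276).

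Usp18 (NCBIM37 chr6:121195924-121220934, + strand, 11 exons) had 34.5, 19.2 and 47.2 normalized reads at P18, 16.03, 21.3 and 19.9 at P75, 50.4, 19.5 and 19.5 at 6 months, and 53.5, 72.4 and 66.7 at 24 months. The P75 libraries, replicate 2 of P18 and replicates 2 and 3 of 6 months had similar low values, and replicate 1 of 6 months and replicate 3 of P18 came close to the 24-month libraries, which were above all. From 6 to 24 months the mean went from 29.8 ± 17.8 to 64.2 ± 9.71 (SD, n = 3), a log2 change of 1.22 ± 0.35 (SE, adjusted p = 0.0238). From P75 to 24 months the log2 change was 1.70 ± 0.35 (adjusted p = 0.000904), the largest of the 9 genes in that comparison. The rise from P18 to 24 months, 0.99 (adjusted p = 0.020), did not pass without replicate 2 of P18 (0.65, adjusted p = 0.118).

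Irf7, the transcription factor of the group, was the least covered per length and had the largest coefficient of variation of the 9 over the 3 libraries of 6 months, with 10 reads in replicate 2. Irf7 (NCBIM37 chr7:148448605-148452380, - strand, 7 exons) had 48.7, 29.4 and 68.3 normalized reads at P18, 22.1, 27.8 and 28.7 at P75, 47.1, 8.88 and 27.3 at 6 months, and 62.4, 78.9 and 61.1 at 24 months. The 24-month libraries were above those of P75 and 6 months, while replicate 3 of P18 lay among them. The mean went from 27.8 ± 19.1 at 6 months to 67.5 ± 9.94 at 24 months (SD, n = 3), a log2 change of 1.52 ± 0.42 (SE, adjusted p = 0.0203), and from P75 to 24 months the log2 change was 1.33 ± 0.42 (adjusted p = 0.0160). Against P18 the change at 24 months did not pass (0.53 ± 0.42, adjusted p = 0.283). Irf7 is overlapped on the other strand by Phrf1, and whether counting used the strand is not given in the sources used here.

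The 2 genes of antiviral membrane proteins with known roles at the cell surface and in endosomes are Bst2 and Ifitm3. Bst2 (NCBIM37 chr8:74058163-74061336, - strand, 5 exons) had 60.6, 81.4 and 109 normalized reads at P18, 101, 106 and 107 at P75, 166, 130 and 140.1 at 6 months, and 260, 301 and 276 at 24 months. Its libraries of P75, 6 months and 24 months formed 3 rising groups with no overlap, and the libraries of P18 overlapped those of P75. The mean went from 83.8 ± 24.5 at P18 to 105 ± 3.13 in the P75 libraries, 145 ± 18.6 at 6 months and 279 ± 20.7 at 24 months (SD, n = 3). The log2 change was 0.46 ± 0.17 from P75 to 6 months (SE, adjusted p = 0.0332), 0.94 ± 0.17 from 6 to 24 months (adjusted p = 0.00249) and 1.76 ± 0.17 from P18 to 24 months (adjusted p = 2.12e-07). Bst2 thus passed all 3 tests against 24 months with the smallest adjusted p of the 9 genes in each of them. Its rise from P75 to 6 months did not pass without replicate 1 of 6 months (0.36, adjusted p = 0.140).

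Ifitm3 (NCBIM37 chr7:148195485-148196669, - strand, 2 exons) had 143, 116 and 260 normalized reads at P18, 179, 202 and 161 at P75, 184, 204 and 148 at 6 months, and 265, 377 and 294 at 24 months. Replicate 3 of P18 reached almost the lowest 24-month library, and the other 8 younger libraries stayed at 204 or below. The mean was 181 ± 20.4 at P75 and 179 ± 28.5 at 6 months, and 312 ± 58.5 at 24 months (SD, n = 3), a log2 change of 0.80 ± 0.23 from 6 to 24 months (SE, adjusted p = 0.0233) and of 0.92 ± 0.23 from P18 to 24 months (adjusted p = 0.00206). Of its 50-base stretches, 10.02% also occur in other genes, most in Gm7676.

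Ifi27l2a (NCBIM37 chr12:104680377-104681890, - strand, 4 exons) had 55.9, 37.3 and 54.2 normalized reads at P18, 73.2, 86.2 and 145 at P75, 69.9, 36.4 and 66.2 at 6 months, and 148, 177 and 125 at 24 months. It went up, down and up again: the P75 libraries lay above those of P18 and of 6 months, and replicate 3 of P75 lay among those of 24 months. It rose by 0.99 ± 0.27 on the log2 scale from P18 to P75 (SE, adjusted p = 0.00760), fell by 0.80 from P75 to 6 months (SE 0.27, adjusted p = 0.0194) and rose by 1.41 ± 0.27 from 6 to 24 months (adjusted p = 0.00316). The fall did not pass without replicate 3 of P75 (adjusted p = 0.125) or replicate 2 of 6 months (adjusted p = 0.122). The rise from P75 to 24 months, 0.61 (adjusted p = 0.0745), did not pass with all libraries scaled to the same total (adjusted p = 0.108), with quantile normalization (adjusted p = 0.143), with no filter on low values (adjusted p = 0.109), or without replicate 1 or 2 of P75 or of 24 months. Its annotated span is overlapped on the same strand by Ifi27l2b, with which it shares 40.8% of its 50-base stretches and which was listed at 3.49 ± 2.72 normalized reads at most, at P75 (SD, n = 3).

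From P18 to P75 the 9 genes parted: Ifit3 and Ifi27l2a rose, Isg15 fell and 6 did not pass. Among all genes tested, 25.9% rose and 22.9% fell. The median log2 change of the 9 was 0.14 (0.015 over all genes). Usp18 (-0.71, adjusted p = 0.115), Irf7 (-0.80, adjusted p = 0.138) and Oasl2 (-0.42, adjusted p = 0.227) had lower means at P75, and Bst2 (0.36, adjusted p = 0.108) a higher one. The count turned on single libraries: without replicate 3 of P18 there were 4 rises (Bst2, Ifi27l2a, Ifit3 and Ifitm3) and 0 falls, and without replicate 2 of P18 there were 2 rises and 3 falls. Of all 14634 genes, 3911 rose and 3414 fell without replicate 3 of P18, and 3366 and 2919 without replicate 2. Scaled to the same total, 3 of the 9 rose (Bst2, Ifi27l2a and Ifit3) and 0 fell, beside 32.4% of all genes that rose and 12.5% that fell.

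From P75 to 6 months Oasl2 and Bst2 rose, Ifi27l2a and Isg15 fell and 5 did not pass, beside 31.2% of all genes that rose and 29.4% that fell. The median log2 change was -0.024 for the 9 genes and 0.0051 over all genes. Without replicate 1 of 6 months 0 of the 9 rose and 3 fell (Ifi27l2a, Ifit3 and Isg15), beside 3977 of all 14634 genes that rose and 3731 that fell. With the replicate number as a block, 1 of the 9 rose and 2 fell, beside 4488 and 4207 of all genes.

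From P75 to 24 months 8 of the 9 rose, and Isg15 did not pass. In this comparison 28.8% of all genes rose and 26.1% fell. The median log2 change was 0.98, against -0.0038 over all genes. All 3 libraries of 24 months lay above all 3 of P75 for 7 of the 9 (not Ifi27l2a and Isg15), which held for 29.4% of all genes. From P18 to 24 months 7 of the 9 rose, and Isg15 and Irf7 did not pass, beside 34.7% of all genes that rose and 34.3% that fell. The median log2 change was 1.05, against -0.0096 over all genes. The libraries of 24 months lay above those of P18 for 7 of the 9, which held for 33.3% of all genes. The 3 comparisons that end at 24 months share its libraries and are not independent of each other.

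Per kilobase of annotated exon, the same genes stood at both ends of the order of levels at every age. Ifitm3 was highest throughout, with 255 ± 113 normalized reads per kb at P18, 267 ± 30.1 in the P75 libraries, 264 ± 42.1 at 6 months and 460 ± 86.2 at 24 months (SD, n = 3). Irf7 was lowest throughout, with 16.1 ± 6.44, 8.67 ± 1.2, 9.18 ± 6.33 and 22.3 ± 3.29 per kb. Ifit1, Usp18 and Oasl2 held places 6 to 8 at every age. Of the genes between them, Isg15 held place 2 at P18 (124 ± 34.4 per kb) and place 5 at the later ages (111 ± 26.6 at 24 months), and Bst2 was at place 4 at P18 and P75 and at place 2 at 6 and 24 months (365 ± 27.0 per kb at 24 months). Neighbours in this order often overlapped: at P18 Ifit3 (110 ± 18.1 per kb), Bst2 (109.7 ± 32.1) and Ifi27l2a (106 ± 22.2) differed by less than their spread.

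Single libraries stood apart from others of their age across most of the 9 genes. At 6 months replicate 1 had the highest value of its age in 8 of 9 genes, at P18 replicate 3 did so in 8 of 9, and at 24 months replicate 2 in 9 of 9. Over all genes tested, these libraries were the highest of their age in 36.7%, 44.0% and 27.5%. Relative to the mean of its age, the median log2 deviation of the 9 genes was 0.51 in replicate 1 of 6 months, 0.39 in replicate 3 of P18 and 0.17 in replicate 2 of 24 months, and all 9 genes were above the mean of the age in each of the 3. In replicate 2 of P18 all 9 were below it, with a median of -0.42. At P75 the medians ran from -0.013 to 0.034, and single genes from -0.47 to 0.51.

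**Figure D3:**
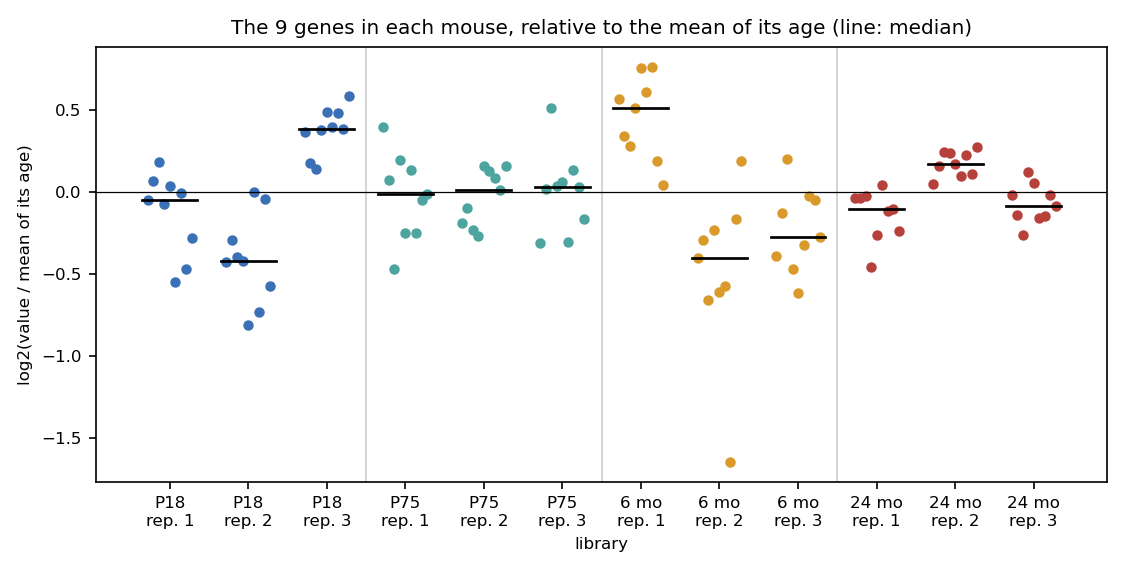
Log2 of the normalized read count over the mean of the same age (vertical axis) for the 9 genes in each of the 12 libraries (horizontal axis); each point is 1 gene and the line is the median. All 9 points lie above 0 in replicate 3 of P18, replicate 1 of 6 months and replicate 2 of 24 months, and the lowest point is Irf7 in replicate 2 of 6 months, at -1.64.

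The spread within an age was compared with that of other genes. The median coefficient of variation over the 9 genes was 29.3% at P18, 14.3% in those of P75, 37.2% at 6 months and 14.7% at 24 months. Over the 4290 genes of the same range of levels it was 13.4%, 11.6%, 10.2% and 11.1%. At 6 months Irf7 (68.9%), Usp18 (59.8%) and Oasl2 (46.0%) varied most and Bst2 least (12.8%). At 24 months Ifit1 varied by 3.02%. Whether these differences lie in the mice or in the preparation of the myelin was not tested.

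Interferons themselves were next to absent. Of 19 interferon genes in the table, 17 (among them Ifnb1, Ifng and all of the Ifna genes listed) had no read in any of the 12 libraries, and Ifne and Ifnk had 1 read each. A count of 0 in 1 library allows a mean level of up to 3 reads there, and less where all libraries are at 0. A level below that would not have been seen. Of the receptor genes, 5 passed the filter on low values, and from 6 to 24 months 3 of the 5 rose and 0 fell. Over all genes tested, 16.6% rose and 12.7% fell. Ifnar2, a chain of the type I receptor, had 234 ± 5.38 normalized reads at P18, 431 ± 33.5 in the P75 libraries, 486 ± 7.77 at 6 months and 635 ± 35.8 at 24 months (SD, n = 3), and rose by 0.38 on the log2 scale from 6 to 24 months (adjusted p = 0.00905) and by 1.43 from P18 (adjusted p = 1.72e-09). Il10rb, shared by the receptors of interferon lambda and interleukin 10, and Ifngr1, a chain of the interferon gamma receptor, also rose from 6 to 24 months, by 0.54 (adjusted p = 0.0140) and 0.39 (adjusted p = 0.0478).

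Of the kinases and transcription factors that carry the signal, 5 of 10 rose and 1 fell from 6 to 24 months, with a median log2 change of 0.29. In that comparison 16.6% of all genes tested rose and 12.7% fell. Irf9, which encodes a part of the complex on the response element, went from 199 ± 23.4 to 323 ± 47.4 normalized reads (SD, n = 3), a log2 change of 0.69 (adjusted p = 0.00364). Of 7 inhibitors of the signal, 1 rose and 2 fell, and Pias4 fell by 0.39 (adjusted p = 0.0987) after a rise of 1.05 from P75 to 6 months (adjusted p = 5.65e-05). The inhibitor phosphatase gene Ptpn11 rose from P18 to 24 months (1.13, adjusted p = 9.21e-05). Of 13 nucleic acid sensors and adaptors, 4 rose and 0 fell from 6 to 24 months. The sensors Tlr7 (0.82, adjusted p = 0.0158) and Ifih1 (0.44, adjusted p = 0.0814) were among the 4. Tlr3, a sensor of double-stranded RNA, and Tmem173, which encodes STING, had instead risen from P75 to 6 months (0.89, adjusted p = 0.000407, and 1.36, adjusted p = 0.000580) and did not pass from 6 to 24 months (0.05, adjusted p = 0.863, and -0.23, adjusted p = 0.577).

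The other interferon-stimulated effectors were described by a longer list. Of 74 listed, 67 were in the table and 51 were tested, of which 20 rose and 1 fell from 6 to 24 months (median log2 change 0.38). Over all genes tested, 16.6% rose and 12.7% fell there. Between P75 and 6 months 14 rose and 5 fell, beside 31.2% of all genes that rose and 29.4% that fell. Of these rises 6 were over 2-fold, and the share of all genes over 2-fold was not counted. From P75 to 24 months 27 rose and 2 fell (28.8% and 26.1% of all genes). From P18 to 24 months 33 rose and 5 fell (34.7% and 34.3% of all genes). Lgals3bp, a secreted glycoprotein, rose in every step and went from 98.7 ± 4.52 normalized reads at P18 to 627 ± 103 at 24 months (SD, n = 3; log2 change 2.64, adjusted p = 7.66e-10). The GTPase genes Gbp2 and Igtp rose from 6 to 24 months, by 0.71 (adjusted p = 0.0728) and 0.54 (adjusted p = 0.0486), while Tor3a did not pass (0.18, adjusted p = 0.370). Ifit2, a neighbour of Ifit1 and Ifit3 in family and place, and the antiviral genes Mx2 and Rsad2 were named after their values were seen, because they did not pass from 6 to 24 months. Ifit2 had 328 ± 42.9 normalized reads at 6 months and 316 ± 26.3 at 24 months (SD, n = 3; log2 change -0.05, adjusted p = 0.817). From P18 to 24 months Ifit2 rose by 0.43 (adjusted p = 0.00432). From 6 to 24 months Mx2 (0.54, adjusted p = 0.259) and Rsad2 (0.30, adjusted p = 0.566) did not pass either. Rsad2 rose from P75 to 24 months (1.33, adjusted p = 0.00442), and Mx2 fell by 0.97 from P18 to 24 months (adjusted p = 0.0165). In the libraries of 24 months they had at most 31.7 (Mx2) and 25.95 (Rsad2) normalized reads.

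The 5 genes outside the group whose values over the 12 libraries were most like the mean standardized level of the 9 were Cxcl10 (Pearson r = 0.913), Cidea (0.913), Mmp12 (0.908), Irf9 (0.896) and Lcn2 (0.886). These correlations describe the 12 libraries, which share their ages, and carry no test. Cxcl10, a chemokine induced by interferon, had 17.6 ± 9.61 normalized reads at P18, 9.46 ± 1.85 in those of P75, 23.4 ± 14.4 at 6 months and 62.5 ± 17.1 at 24 months (SD, n = 3). Mmp12, a macrophage metalloprotease gene, was at 2.27 ± 2.45 normalized reads at 6 months and 37.9 ± 2.82 at 24 months. Lcn2, an acute-phase gene, differed widely between the libraries of 24 months, from 25.8 to 211.

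**Figure D4:**
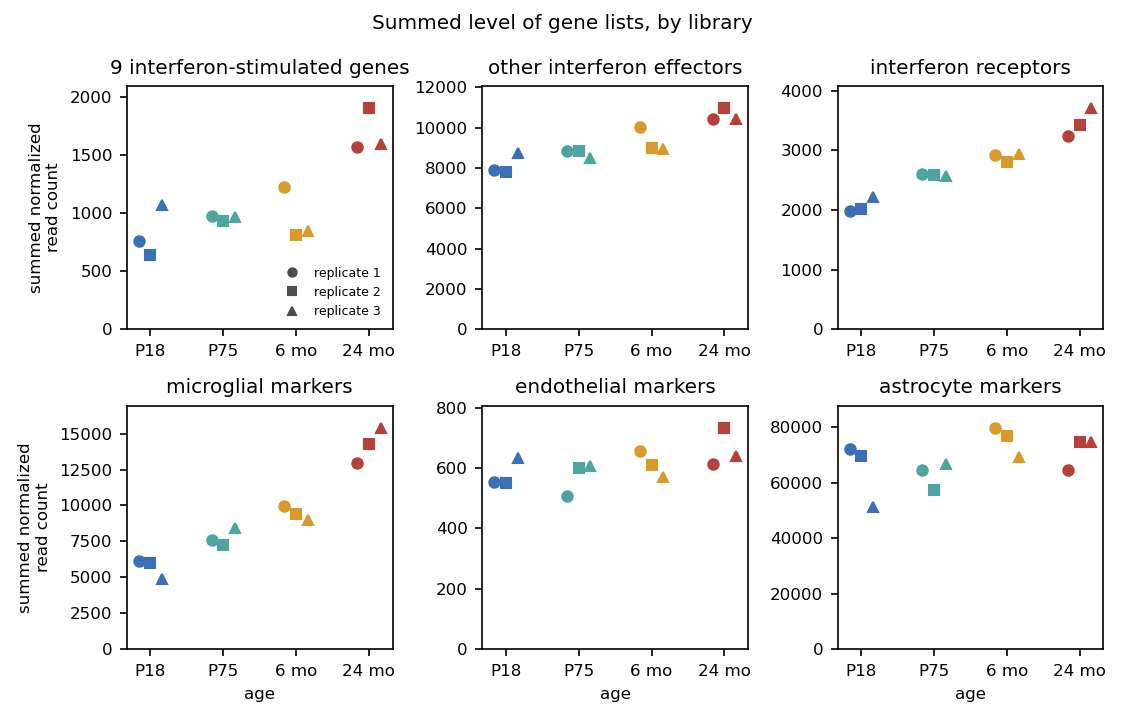
Summed normalized read counts (vertical axes, linear and starting at 0) of the 9 genes, of the other interferon effectors, of the interferon receptors and of markers of microglia, endothelial cells and astrocytes, by age; each symbol is 1 library and its shape the replicate number. The 9 genes sum to 1571 to 1902 at 24 months and 809 to 1224 at 6 months, and the microglial markers to 12968 to 15399 and 9002 to 9976.

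Markers of other cells moved with age as well. The 11 microglial markers, none of them at 0, summed to 4850 to 6155 normalized reads at P18, 7257 to 8466 in those of P75, 9002 to 9976 at 6 months and 12968 to 15399 at 24 months. From 6 to 24 months 6 of 11 rose and 0 fell (median log2 change 0.69), beside 16.6% and 12.7% of all genes tested. Among the markers Tyrobp (1.24, adjusted p = 3.65e-05) and Cd68 (1.18, adjusted p = 0.000181) rose, while the resident microglial markers P2ry12 (0.24, adjusted p = 0.276) and Tmem119 (0.20, adjusted p = 0.313) did not pass. The sum of the 9 interferon-stimulated genes was 86.0 to 123 per 1000 of microglial markers at 6 months and 103 to 133 at 24 months, and 106 to 221 at P18 and 114 to 129 at P75. On this scale the ages overlapped. Within an age, replicate 1 of 6 months was highest in both sums (1224 for the 9 genes and 9976 for the markers), and replicate 2 of P75 (933 and 7257) and replicate 1 of 24 months (1571 and 12968) were lowest in both. Replicate 3 of P18 was highest in the 9 genes (1070) and lowest in the markers (4850), and at 24 months replicate 2 was highest in the 9 genes (1902) and replicate 3 in the markers (15399). The part of microglia in the rise was not tested.

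Of markers of other cells, from 6 to 24 months 2 of 8 rose for endothelial cells, 1 of 6 for astrocytes, 1 of 6 for border macrophages, 1 of 5 for choroid plexus and 0 of 8 for neurons, and 0 of these fell. Over all genes tested, 16.6% rose and 12.7% fell, so such small counts do not set these markers apart. The summed endothelial markers were 571 to 656 at 6 months and 615 to 733 at 24 months, those of border macrophages 233 to 244 and 269 to 348, those of astrocytes 69315 to 79766 and 64731 to 74805, and those of choroid plexus 27368 to 31727 and 42564 to 47203. Of 8 lymphocyte markers 7 were below 10 normalized reads at every age. Of 8 oligodendrocyte markers 0 rose and 1 fell. The part of these cells in the levels of the 9 genes was not tested.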

How the data were processed

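RNA-Seq of purified myelin gave 1 table for the 12 libraries. Per the labels and the study's methods, the authors aligned reads to mm9 with TopHat (TopHat2 2.0.8 and SAMtools 0.1.19 in the submitters' processing notes), counted them per gene with HTSeq 0.5.4p1 and normalized for library size with DESeq. The deposited signal is this normalized read count. Of the nonzero values up to 200 reads, 100.0% were whole reads within 0.1 read in every library. Larger values were rounded to whole reads without this check. Columns were assigned to libraries by their titles, with none left over.

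Tests were run in 1 fit of all 12 libraries with limma 3.58.1 (R 4.3.3) on log2(value + 1), for 14634 genes with a mean of at least 10, adjusted by Benjamini and Hochberg over all of them, for 5 comparisons of ages. Fold changes on this scale understate changes of low genes. edgeR 4.0.16 and DESeq2 1.42.0 on the recovered reads, other pseudocounts (0.5 and 10), filters and scalings, a replicate block and leaving out each library were alternatives. The code was tested on simulated data. The members, gene lists and alternatives were chosen with earlier results of these data known. All 9 members were named, and pathway genes by a rule (called, over 2-fold in 1 comparison, mean of at least 50, at most 4 per list), with the 5 genes of the highest Pearson r to the mean z score of the members.

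Libraries with the same number are not stated to be paired. Their deviations from the age means correlated over all genes by 0.161, 0.101 and 0.187 for P75 and 6 months, each over 0.1, so there the blocked values are given beside the results. In the other comparisons the correlations ran from -0.213 (6 to 24 months, replicate 1) to 0.0286 (P18 to 24 months, replicate 2). Negative values there were thus as large in size, and a pairing of the libraries was not tested. Intervals of counting error were not computed.

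Positions and exon lengths are from GENCODE vM1 on NCBIM37 and promoters from RefSeq on GRCm38.p6. For overlapping genes and near copies the assignment of reads is uncertain, and the handling of strand is not given in the sources used here.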

Additional observations from a re-analysis of the deposited data

How the results depend on the processing

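Of the changes between 6 and 24 months of the 9 genes, 187 of 193 values under an alternative kept their direction and their side of the threshold, 6 lost the call and 0 changed sign. In many of these settings the log2 change, and so its sign, could not move. These were the other filters, the replicate block, the 2 ages alone, and leaving out a library of P18 or P75. There only the adjusted p could change. With a mean over 100 required, 4 of the 9 could be tested, and 1 was called between P18 and P75, 1 between P75 and 6 months, and 4 in each of the 3 comparisons with 24 months. Of all 11305 genes then tested, 3164 rose and 3005 fell between P18 and P75, and 3782 and 3514 between P75 and 6 months. To 24 months 1945 rose and 1710 fell from 6 months, 3296 and 3386 from P75, and 3843 and 4427 from P18. With a change over 2-fold required as well in the main fit, 0 were called between P18 and P75, 0 between P75 and 6 months, 4 between 6 and 24 months and 4 between P75 and 24 months. The share of all genes under this 2-fold rule was not counted. From P18 to P75, where 3 were called, quantile normalization, edgeR and DESeq2 each called 5, with falls of Usp18 and Irf7 added. Of all 14634 genes, 3445 rose and 3625 fell with quantile normalization, 3572 and 3508 in edgeR, and 3576 and 3223 in DESeq2. From P75 to 6 months, where 4 were called, 2 were with no filter on low values, which ended the calls of Isg15 and Oasl2 (and, in other comparisons, the fall of Isg15 from P18 to P75 and the rise of Ifi27l2a from P75 to 24 months), and 2 with an adjusted p under 0.05. With no filter 4623 of 18834 genes rose and 4441 fell from P75 to 6 months, and the share of all genes under 0.05 was not counted. Leaving out 1 library gave 2 to 5 called between P18 and P75, 1 to 4 between P75 and 6 months, 5 to 9 from 6 to 24 months, 6 to 8 from P75 to 24 months and 6 to 7 from P18 to 24 months. Of all 14634 genes, 3350 to 3911 then rose and 2883 to 3414 fell between P18 and P75, and 3977 to 4875 and 3731 to 4592 between P75 and 6 months. To 24 months 1394 to 2982 rose and 1024 to 2341 fell from 6 months, 3681 to 4481 and 3078 to 4209 from P75, and 4707 to 5103 and 4586 to 5052 from P18.

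With the replicate block the counts were 3, 3, 9, 8 and 7 in the 5 comparisons, and no call other than that of Oasl2 from P75 to 6 months changed. In the same order 3706, 4488, 2279, 4163 and 5052 of all 14634 genes rose, and 3262, 4207, 1717, 3689 and 4953 fell. Signs changed only in values without a call. Leaving out 1 library, the log2 change from P18 to P75 ran from -0.058 to 0.35 for Ifit1 and from -0.096 to 0.48 for Ifitm3. From P75 to 6 months it ran from -0.19 to 0.34 for Ifit1, from -0.69 to 0.45 for Irf7 (0.11 in edgeR and 0.087 in DESeq2) and from -0.13 to 0.11 for Ifitm3, and from P18 to 24 months from -0.33 to 0.065 for Isg15. The cause of these shifts was not tested. With 3 libraries an age, no test for single outlying libraries was made. Irf7, with 10 to 73 reads a library, and Usp18, with 16 to 72, were the genes most limited by depth.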
